A study of Tupaia belangeri with 15 samples.

Results

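The CALCRL-positive ganglion cells of the tree shrew (TS) retina were nuclei that carried the markers of retinal ganglion cells (RGCs) together with the peptide receptor gene CALCRL. Their number was 76 of the 119765 nuclei that passed the limits on genes per nucleus (more than 200 and fewer than 6000) and on mitochondrial counts (under 5%). A nucleus was a member when it held at least 2 CALCRL UMIs (unique molecular identifiers, each standing for 1 captured RNA molecule), at least 1 UMI each of RBPMS and SLC17A6, fewer than 2 of SPP1, fewer than 3 each of FOXP2, SLIT2 and RUNX1, and none of the cone gene ARR3. SPP1, FOXP2, SLIT2 and RUNX1 mark other RGC subpopulations of the TS, so nuclei that reached these limits were left out. Below the limits, UMIs of FOXP2 were still found in 17 members, of SLIT2 in 19, of SPP1 in 6 and of RUNX1 in 4. RBPMS was at exactly 1 UMI in 27 members and SLC17A6 in 14. Because these 8 genes chose the members, their values in the members are given as a description and with no test. CALCRL was tested between stages over all gated RGCs, of which the members are a part.

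The study profiled single nuclei of 15 TS (Tupaia belangeri) retinas to follow the retina over postnatal life, with 1 library per animal. The retinas were 5 of the Infancy, 5 of the Mature and 5 of the Senile stage. The labels give no treatment, genotype, sex or age in months. Infancy and mature animals came from 1 animal centre and senile animals were bought from another institute, so the senile stage and the source of the animals cannot be told apart.

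RGCs are the output neurons of the retina and send their axons through the optic nerve to the brain. CALCRL is a class B G protein-coupled receptor that reaches the cell surface with a receptor activity-modifying protein: with RAMP1 it forms the receptor for calcitonin gene-related peptide (CGRP), and with RAMP2 or RAMP3 a receptor for adrenomedullin. It couples mainly to Gs, which raises cyclic AMP, and it is best known from vascular endothelium and from peptide-responsive neurons.

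Among the 119765 nuclei, 1366 held at least 1 CALCRL UMI and 432 held at least 2. Of the latter, 135 also held RBPMS and SLC17A6, 93 of these lacked ARR3, and 17 of the 93 were left out for SPP1, FOXP2, SLIT2 or RUNX1. At the threshold, 33 members held exactly 2 CALCRL UMIs, 22 held 3, and the highest held 15. Just outside it, 137 nuclei met every other condition with 1 CALCRL UMI, and 2248 met them with none. The latter, called CALCRL-0 RGCs, were the first reference, and 362 nuclei with at least 3 FOXP2 UMIs and no CALCRL, called FOXP2-positive RGCs, were the second. Both come from the 3782 gated RGCs, meaning all nuclei with RBPMS, SLC17A6 and no ARR3 whatever their subtype genes, of which the members made up 2.01%.

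The RGC label of the members was checked against markers that had no part in the rule. The 16 pan-RGC genes, which include THY1, NRN1, the POU4F factors and the neurofilaments, summed in the 7 retinas with at least 5 members to 1260.3 CPM (UMIs of a gene scaled to a common total for each summed set) at the lowest, 2638 at the median and 3534 at the highest. The CALCRL-0 RGCs of the same retinas summed to 1313, 1997 and 2648 CPM. Of the 16 genes, 2 (POU4F2 and NEFL) were at 0 in the members, and neither had a UMI in any library. Markers of microglia were at 0 in the members of all 7 retinas, and over all 76 members CSF1R gave 1 UMI. In CALCRL-0 RGCs they were at 0 to 4.39 CPM. A gene at 0 in all members allows up to 5.16 CPM, so such levels could not be told from 0. The 7 rod markers reached at most 18.1 CPM in the members against 11.7 to 76.1 CPM in CALCRL-0 RGCs. The 9 amacrine markers lay at 27.8 to 163 CPM in the members and at 44.6 to 142 CPM in CALCRL-0 RGCs. The 12 endothelial and pericyte markers, of interest because endothelium uses CALCRL, were lower in the members in 6 of 7 retinas (20.0 to 247 CPM against 110.1 to 175 CPM), and 7 of the 12 were at 0. The 9 bipolar markers summed to 819 to 1570 CPM in the members and 1072 to 1973 CPM in CALCRL-0 RGCs, nearly all of it from CA10 with 647 UMIs in the members. The study presents CA10 as a bipolar cell marker of the TS. CALCRL-0 RGCs passed the same gate, so bipolar mixing shared by both sets would not show in this comparison.

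The libraries fall into 2 sets by the Cell Ranger version in their file headers, and the gated RGCs differed in number between the sets. The 7 libraries with version 6.1.2 (3 infancy, 2 mature, 2 senile) gave 359 to 583 gated RGCs each, 4.82 to 6.53% of their nuclei, and 58 of the members. The 8 libraries with version 7.0.1 (2 infancy, 3 mature, 3 senile) gave 18 to 124 gated RGCs each, 0.306 to 2.34% of their nuclei, and 18 members. Gated RGCs held a median of 5328 UMIs in the first set and 9198 in the second. Whole libraries held 13429873 to 58734300 UMIs. Of the 117976 barcodes in use, 1768 occurred in more than 1 library. This held for 2 of the 76 members' barcodes, of which 0 were members in both libraries.

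The members held 2882 to 22186 UMIs, with a median of 5825, and 1582 to 5830 genes. CALCRL-0 RGCs held a median of 5118.5 UMIs. Scrublet called 5 members (6.58%) doublets, against 6.36% of the CALCRL-0 RGCs. A further check counted mixed nuclei, with UMIs of several markers of another retinal class, and these were 8 members (10.5%) against 13.8% of the CALCRL-0 RGCs. The markers were those of bipolar cells in 7 of the 8 members and in 230 of the 311 mixed CALCRL-0 RGCs.

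CALCRL-positive nuclei were a small share of the gated RGCs at each stage, and no stage difference exceeded the spread between retinas. In Infancy 1 to 5 the share was 2.67%, 2.40%, 1.46%, 5.33% and 3.45%. In Mature 1 to 5 it was 1.97%, 1.46%, 1.45%, 0% and 27.8%. In Senile 1 to 5 it was 1.56%, 0.836%, 1.61%, 2.27% and 2.48%. The stages overlapped, and Mature 5 alone stood far above the others, with 5 members among 18 gated RGCs (exact binomial 95% interval 9.69 to 53.5%). Mature 4 held 0 members among 29 gated RGCs, which allows a share of up to 10.3% by the limit of 3 counts and up to 11.9% by the exact binomial interval that the plot of shares shows. Such intervals and limits cover counting error only.

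**Figure D1:**
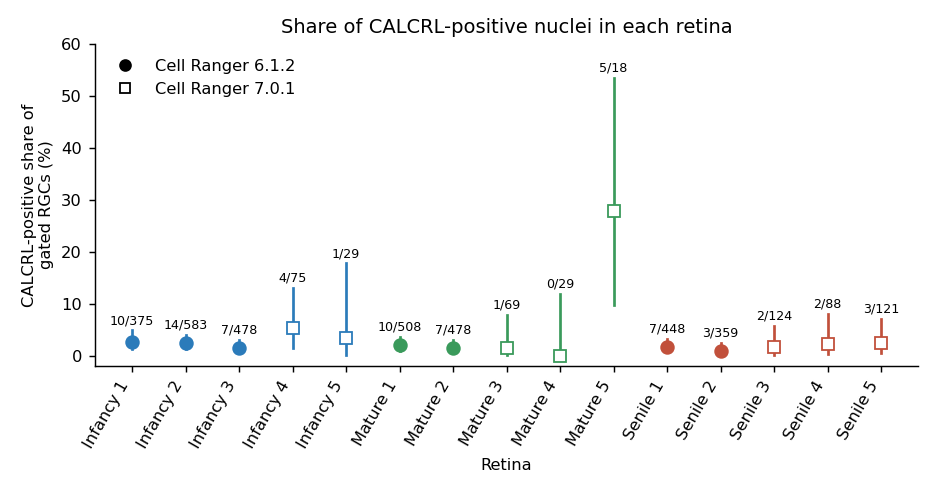
Share of CALCRL-positive nuclei among gated RGCs in percent (vertical axis) for each of the 15 retinas (horizontal axis), with exact binomial 95% intervals as lines and members over gated RGCs printed above each point. Filled circles are libraries with Cell Ranger 6.1.2 and open squares those with 7.0.1. Apart from Mature 5 at 27.8%, the points lie between 0 and 5.33%, and the intervals of the 7.0.1 libraries are the wider ones.

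The mean share was 3.06% ± 1.45 in infancy, 6.53% ± 11.9 in mature and 1.75% ± 0.651 in senile retinas (SD, n = 5 each). The senile mean was 1.31 percentage points below the infancy mean (exact permutation test with retinas as units, 2-sided, p = 0.0873, or 0.262 after Benjamini-Hochberg adjustment over the 3 pairs of stages), and 0.743 points below it without Infancy 4 (exact permutation p = 0.175). Senile minus infancy came to -0.512 points where a member needed 3 CALCRL UMIs (exact permutation p = 0.627). With CALCRL thinned to a depth of 2000 UMIs per nucleus it was -0.277 points (exact permutation p = 0.286). The mature mean was 3.47 points above the infancy mean (exact permutation p = 0.992, adjusted p = 0.992), and senile minus mature came to -4.78 points (p = 0.833 by exact permutation, 0.992 adjusted). Mature 5 set the direction of both: without it the mature mean was 1.84 points below infancy (exact permutation p = 0.0476, or 0.0952 adjusted over only the 2 pairs that hold the mature stage) and the senile mean 0.53 points above the mature mean (exact permutation p = 0.349). With retinas permuted only within a Cell Ranger version, senile retinas were 1.62 points below infancy (exact permutation p = 0.02, adjusted p = 0.06), mature retinas 2.45 points above infancy (adjusted p = 0.99) and senile minus mature came to -4.78 points (adjusted p = 0.99).

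The CALCRL level over all gated RGCs of a retina, which does not depend on the threshold of 2 UMIs, was 4.60 ± 0.34 in infancy, 4.06 ± 1.87 in mature and 4.31 ± 0.32 in senile retinas (log2 CPM, SD, n = 5 each). The senile minus infancy difference was -0.29 (exact permutation p = 0.19, adjusted p = 0.571) and -0.37 within Cell Ranger versions (adjusted p = 0.27), and -0.18 without Infancy 5 (exact permutation p = 0.381). Without mixed nuclei it was -0.0229 (exact permutation p = 0.968). In gated RGCs under the limits on the other subtype genes it was -0.175 (exact permutation p = 0.524). The mature minus infancy difference was -0.55 (exact permutation p = 0.556, adjusted p = 0.833) and -0.59 within versions (adjusted p = 0.78). Without Mature 5, whose level was 134 CPM against 3.51 to 16.2 CPM in the other mature retinas, it was -1.30 (exact permutation p = 0.0159, or 0.0317 adjusted over only the 2 pairs that hold the mature stage). Without Mature 3 it was -0.25 (exact permutation p = 0.714) and without Mature 4 -0.0755 (p = 0.968 by exact permutation), so its size rested on single retinas. The senile minus mature difference was 0.25 (exact permutation, adjusted p = 0.833; 0.883 within versions), and without Mature 3 or Mature 4 it turned to -0.04 and -0.22, and without Mature 5 it was 1.007 (exact permutation p = 0.0952).

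The CALCRL threshold was also read at equal depth, since a threshold in UMIs is easier to pass in a deeper nucleus. CALCRL UMIs were thinned to a depth of 2000 UMIs in each gated RGC that held at least that many. The gate and the limits on other genes used unthinned counts, so they still depended on depth. Of the 6.1.2 libraries, 14 of 3178 gated RGCs (0.441%) still held 2 or more CALCRL UMIs and met the other limits. Of the 7.0.1 libraries, 2 of 545 (0.367%) did. Both of the latter came from Mature 5, and without it the 7.0.1 libraries held 0 of 527, which allows a share of up to 0.569%. Without thinning these shares were 1.80% (1.37 to 2.32%) and 3.25% (1.94 to 5.10%).

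CALCRL UMIs were found more often in gated RGCs than in the other classes counted, apart from the few vascular nuclei. At least 1 UMI was present in 7.09% of gated RGCs (exact binomial 95% interval 6.29 to 7.95%, median 5560.5 UMIs per nucleus). The share was 1.45% in bipolar cells (1.28 to 1.63%, median 3292 UMIs), 1.00% in amacrine cells (0.794 to 1.25%) and 1.03% in Müller cells (0.795 to 1.30%). In cones, which were assumed to lack the gene, it was 0.265% (0.191 to 0.357%, median 3650.5 UMIs). These other classes were gated by markers of their own and by the absence of RBPMS. Of all 432 passing nuclei with at least 2 CALCRL UMIs, 141 held ARR3 (median 7367 UMIs). By Cell Ranger version it was 0.0811% of cones in 6.1.2 and 0.566% in 7.0.1 libraries, beside 6.75% and 9.04% of gated RGCs. These intervals pool nuclei of all retinas and cover counting error only. In 40 vascular nuclei it was 12.5% (4.19 to 26.8%). As levels, gated RGCs held 19.8, vascular nuclei 28.4, bipolar cells 5.42 and cones 0.719 CALCRL CPM. The interval of the gated RGCs lay above those of cones, bipolar, amacrine and Müller cells and overlapped that of the vascular nuclei.

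RNA of the partner proteins and ligands of CALCRL was sparse in the members, and none of the 12 genes of the CGRP and adrenomedullin system passed the filter on low counts. Protein was not measured. RAMP1, the partner that makes a CGRP receptor, gave 16 UMIs in the 76 members, or 27.5 CPM. It stood at 24.9 CPM in CALCRL-0 RGCs and 13.4 CPM in FOXP2-positive RGCs. At a filter of 20 CPM, chosen after the data were seen, its difference from CALCRL-0 RGCs was 0.30 (log2, SE 0.48, edgeR adjusted p = 0.871). RAMP2 gave 0 UMIs, which allows up to 5.16 CPM, and RAMP3 gave 2 (3.44 CPM, against 6.95 CPM in CALCRL-0 RGCs). CRCP, a component linked to CGRP receptor signalling, gave 3 (5.16 against 8.98 CPM). Among the ligands, adrenomedullin (ADM) gave 7 UMIs (12.03 against 8.44 CPM), and CALCA, ADM2, IAPP and the numbered copy of CALCB gave 0. The receptor CALCR gave 0 as well. ACKR3 and GPR182 had no UMI in any library, and ADM2 and IAPP none in any gated RGC. Apart from RAMP1, no difference of these genes from the references was tested.

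For tests across genes, UMIs were summed over the nuclei of a set in each retina, and retinas with at least 5 nuclei in both sets were compared with edgeR's quasi-likelihood test, the retina being a block. Against CALCRL-0 RGCs this used 7 retinas (Infancy 1 to 3, Mature 1, 2 and 5, Senile 1), with 60 members and 1709 reference nuclei. Levels below are CPM of the summed UMIs as lowest, median and highest of these retinas. Fold changes are log2 with the standard error (SE), positive where the members were higher, and adjusted p-values are edgeR's with Benjamini-Hochberg adjustment over all genes tested. Genes named below kept an adjusted p under 0.05 when any 1 retina was left out, except where stated. This does not cover the other alternative fits, in which further named genes lost their call.

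Of 1895 genes tested, 195 (10.3%) differed between CALCRL-positive and CALCRL-0 RGCs, 114 higher in the members (6.02%) and 81 lower (4.27%). Over all tested genes the median log2 fold change was -0.04. Of the 114, 99 were higher in each of the 7 retinas, and of the 81, 52 were lower in each. Among the 114, 101 had a single gene name, 6 were numbered copies, 2 antisense and 5 LINC features. DESeq2 called 190 genes. An alternative limited the reference nuclei to UMIs between the lower and upper quartile of the members, pooled over retinas, and left the members whole. There 243 of 5554 genes tested differed (124 higher, 119 lower), in 6 retinas with 55 members and without Mature 5. Of the 195, 153 were among them in the same direction. The levels of the retinas did not overlap for 49 genes higher in the members (2.59% of those tested) and 34 lower (1.79%). The split of the calls moved with the filter on low counts: with no filter 48 were higher and 640 lower, and the median of all genes shifted by -0.53.

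HS3ST4, a heparan sulfate 3-O-sulfotransferase that modifies cell surface proteoglycans, had the lowest adjusted p among the higher genes. Its level in the members was 989, 1304 and 2255 CPM, against 190.4, 232 and 335 CPM in CALCRL-0 RGCs. Every member value lay above every reference value, and the log2 fold change was 2.49 (SE 0.18, edgeR adjusted p = 6.43e-07). PLPP4, a phospholipid phosphatase, was at 160.1, 196 and 501 CPM against 7.86, 39.7 and 58.4 CPM, with no overlap (2.60, SE 0.26, edgeR adjusted p = 1.34e-05). AK5, an adenylate kinase of neurons, was at 145, 468 and 610 CPM against 47.2, 81.7 and 127 CPM, again with no overlap (2.19, SE 0.24, edgeR adjusted p = 3.6e-05).

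LRRC7 (densin), a scaffold of excitatory postsynaptic densities, was at 614, 879 and 1754 CPM in the members and 118, 348 and 371 CPM in the reference (1.67, SE 0.23). RPH3A (rabphilin), which binds Rab3 on synaptic vesicles, was at 108, 186 and 306 CPM against 54.8, 77.4 and 102 CPM (1.27, SE 0.22). The RPH3A call was lost in 3 of 19 alternative fits. CALB2 (calretinin), a calcium-binding protein, was at 167, 247 and 699 CPM against 55.0, 127 and 162 CPM (1.49, SE 0.24). Members and reference did not overlap for these genes, though for CALB2 the gap was 167 against 162 CPM. DYSF (dysferlin), which takes part in calcium-triggered membrane repair, was at 131, 169 and 334 CPM against 23.6, 61.6 and 90.6 CPM (1.50, SE 0.23).

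The other higher genes named by the rule were GULP1, an adaptor for the engulfment of cells (1.52, SE 0.20), IVNS1ABP, a kelch-repeat protein (1.76, SE 0.24), C8ORF34 (1.47, SE 0.24), the zinc-finger transcription factor GLIS3 (1.45, SE 0.20) and TCERG1L (1.27, SE 0.21). GULP1 was at 509, 669 and 1029.9 CPM in the members against 86.5, 253 and 294 CPM. The levels of the sets overlapped for GLIS3 and TCERG1L, each of which was still higher in the members of every retina. The edgeR adjusted p of these 5 genes and of the 4 before them ranged from 0.00016 to 0.00136.

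**Figure D2:**
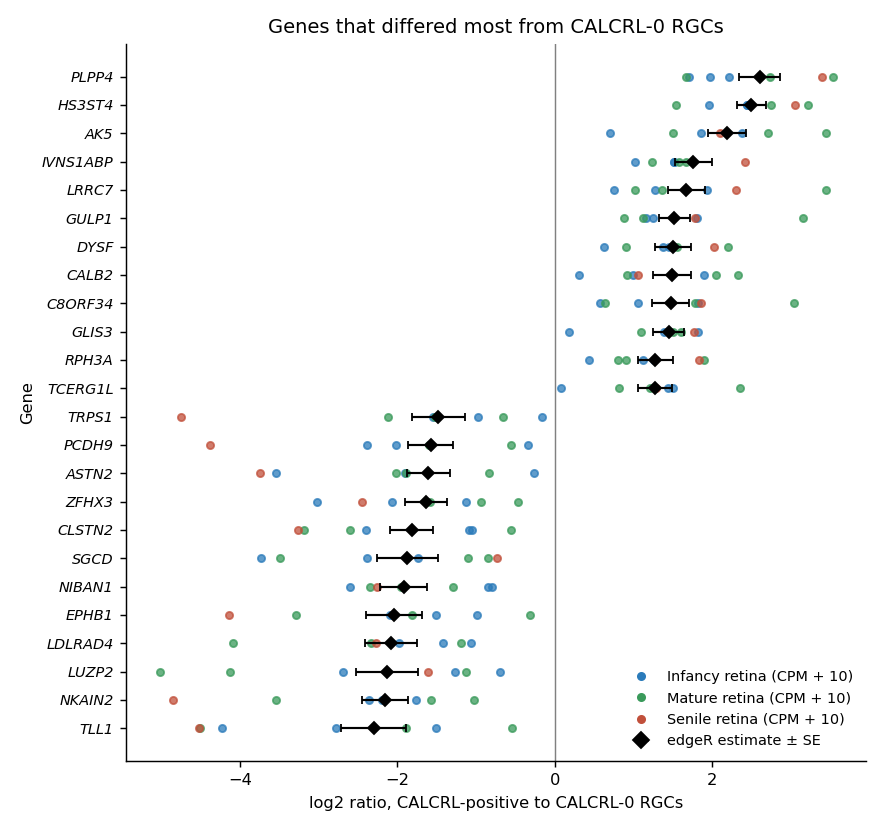
Log2 ratio of CALCRL-positive to CALCRL-0 RGCs (horizontal axis) for the 12 higher and 12 lower genes named by the rule (vertical axis). Each coloured point is 1 of 7 retinas, computed on CPM + 10, and the black diamond is the edgeR estimate with its SE. All points of the higher genes lie right of 0 and all points of the lower genes left of it, which the rule required, and the spread between retinas is wider for the lower genes, whose member counts are small.

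Among the lower genes, TLL1, a tolloid-like metalloprotease, had the largest named fold change. Its level was 0, 12.3 and 116 CPM in the members against 143, 178 and 220.2 CPM in CALCRL-0 RGCs (-2.30, SE 0.41, edgeR adjusted p = 0.00156). NKAIN2, which interacts with the sodium-potassium ATPase, was at 0, 61.6 and 189 CPM against 257, 358 and 396 CPM (-2.16, SE 0.29). CLSTN2 (calsyntenin-2), a postsynaptic cadherin-family protein, was at 79.9, 134 and 538 CPM against 677, 802 and 885 CPM (-1.82, SE 0.27). None of these 3 genes overlapped between the sets.

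PCDH9, a protocadherin, fell from 1142, 1352 and 1933 CPM in the reference to 83.5, 440 and 1121 CPM in the members (-1.58, SE 0.28). ASTN2 (astrotactin-2), which acts in the migration of neurons, was at 24.2, 123 and 398 CPM against 388, 496 and 755 CPM, the highest member value being just above the lowest reference value (-1.61, SE 0.27). LUZP2 (-2.13, SE 0.39), LDLRAD4, an inhibitor of TGF-beta signalling (-2.08, SE 0.33), NIBAN1 (-1.92, SE 0.29), SGCD, a subunit of the sarcoglycan complex (-1.87, SE 0.39), and TRPS1, a GATA-type repressor (-1.48, SE 0.34), were lower as well. TRPS1 was not tested in the fit without Infancy 3. The edgeR adjusted p of NKAIN2 and of the genes named after it lay between 0.000167 and 0.00794.

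Nuclei with exactly 1 CALCRL UMI, which the threshold left out, lay between the members and the CALCRL-0 RGCs in the share with a UMI for most of the 24 genes named by the rule. The exceptions were PLPP4, LUZP2, NIBAN1 and ZFHX3 in nuclei thinned to 2000 UMIs, and LUZP2, NIBAN1, ZFHX3, IVNS1ABP, TLL1 and TRPS1 without thinning. After thinning to 2000 UMIs, HS3ST4 was detected in 72.4% of the 76 members, 58.4% of the 137 single-UMI nuclei, 26.1% of 2193 CALCRL-0 RGCs and 49.6% of 359 FOXP2-positive RGCs. Without thinning the shares were 80.3%, 66.4%, 37.5% and 67.7%. GULP1 followed the same order, with 76.3%, 67.2%, 30.8% and 43.5% after thinning. EPHB1, a lower gene, was found in 5.3% of members, 10.9% of single-UMI nuclei, 22.7% of CALCRL-0 RGCs and 29.0% of FOXP2-positive RGCs. These shares are over nuclei pooled from all retinas and are descriptions.

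The 12 higher genes were counted together in each thinned nucleus. Members held a median of 6 of the 12, single-UMI nuclei 4, CALCRL-0 RGCs 2 and FOXP2-positive RGCs 3. At least 4 were found in 56 of 76 members, 76 of 137 single-UMI nuclei, 552 of 2193 CALCRL-0 RGCs and 143 of 359 FOXP2-positive RGCs. The 12 genes were chosen on the members and the CALCRL-0 RGCs, so the single-UMI and FOXP2-positive nuclei had no part in the choice.

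**Figure D3:**
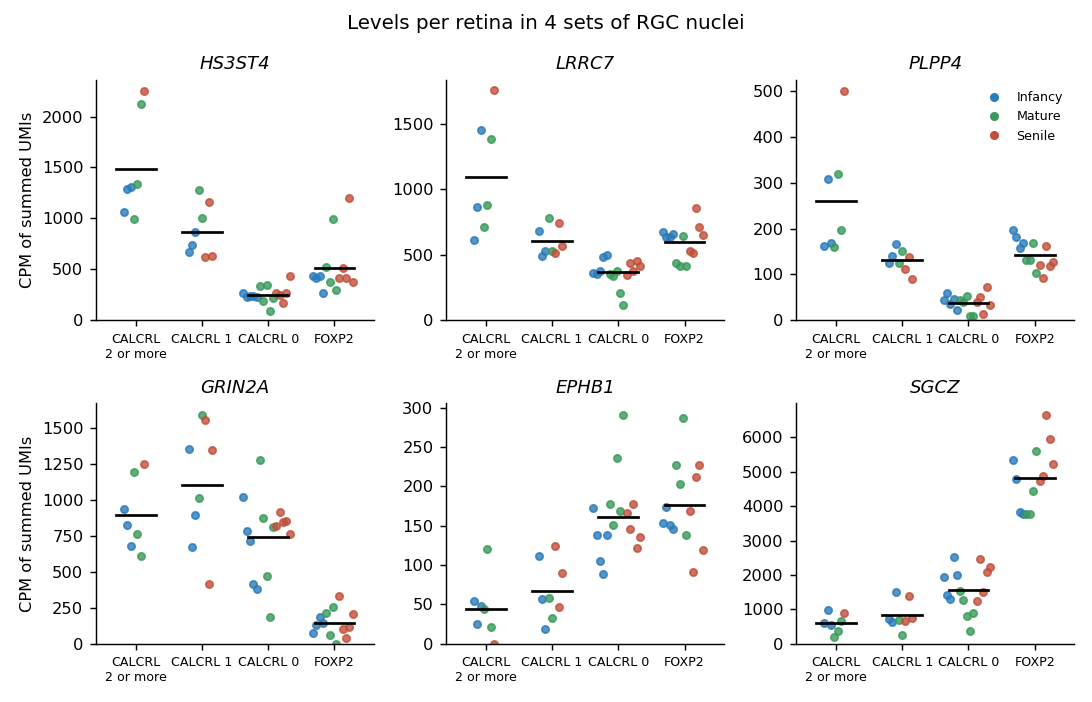
CPM of summed UMIs (vertical axes) of 6 genes in 4 sets of RGC nuclei (horizontal axes): CALCRL at 2 or more UMIs, at 1, at 0, and FOXP2-positive. Each point is 1 retina, coloured by stage, and the bar is the mean. By their means HS3ST4, LRRC7 and PLPP4 are highest in the members, EPHB1 is lowest there, GRIN2A is low only in the FOXP2-positive set of these 4 sets, and SGCZ is high there.

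The members were then compared with FOXP2-positive RGCs, an RGC subpopulation that the study also marks by a single gene, in 6 retinas (without Mature 5, which held no such nuclei) with 55 members and 256 reference nuclei. Both comparisons use the same members, so their values are given side by side. Of 2063 genes tested, 175 differed (8.48%), with 83 higher (4.02%) and 92 lower (4.46%), around a median of 0.02 over all tested genes. DESeq2 called 126. With reference nuclei limited to the same range of UMIs, 141 of 1368 genes tested differed, and 126 of the 175 were among them in the same direction. Levels did not overlap for 42 higher genes (2.04%) and 52 lower genes (2.52%).

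HS3ST4 was at 989, 1298 and 2255 CPM against 372, 422 and 518 CPM in FOXP2-positive RGCs (1.58, SE 0.17, edgeR adjusted p = 3.92e-06). CALB2 (1.67, SE 0.23), IVNS1ABP (1.69, SE 0.28), DYSF (1.46, SE 0.26) and C8ORF34 (3.35, SE 0.28) were higher here too. The edgeR adjusted p of these 4 genes was between 1.89e-07 and 0.000914. PLPP4 had a value of 0.71 here (SE 0.26, edgeR adjusted p = 0.104), and the difference between the 2 values was not tested.

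GRIN2A, the GluN2A subunit of NMDA receptors, was at 676, 882 and 1253 CPM in the members and 57.9, 158 and 333 CPM in FOXP2-positive RGCs (2.54, SE 0.21, edgeR adjusted p = 1.89e-07). Against CALCRL-0 RGCs its difference was -0.05 (SE 0.13, edgeR adjusted p = 0.895). PCDH17, a protocadherin, was at 199.8, 271 and 390 CPM against 18.4, 41.4 and 61.7 CPM (2.64, SE 0.23, edgeR adjusted p = 2.68e-07), and against CALCRL-0 RGCs its value was 0.47 (SE 0.23, adjusted p = 0.244). CHSY3, a chondroitin sulfate synthase (2.24, SE 0.20), and SHISA6, an auxiliary subunit of AMPA receptors (1.46, SE 0.22), were higher with no overlap. CLIC6, a member of the chloride intracellular channel family, was at 87.3, 181 and 418 CPM against 33.6, 49.9 and 96.4 CPM, with overlap (1.75, SE 0.25). SERPINI1 (neuroserpin), an inhibitor of serine proteases, was higher by 1.76 (SE 0.33, edgeR adjusted p = 0.00128) and lost its call without Mature 1 (adjusted p = 0.0524).

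The lower genes included 3 of the dystrophin-associated complex, which links the cytoskeleton to the extracellular matrix. SGCZ (zeta-sarcoglycan) was at 204, 573 and 985 CPM in the members and 3766, 4279 and 5332 CPM in FOXP2-positive RGCs (-2.98, SE 0.19, edgeR adjusted p = 5.82e-09). SGCD (delta-sarcoglycan) was at 0, 21.1 and 58.2 CPM against 278, 388 and 459 CPM (-3.97, SE 0.38). DMD (dystrophin) was at 0, 24.4 and 54.2 CPM against 110.2, 132 and 212 CPM (-2.38, SE 0.38). These 3 were picked by the size of their change and not as a list. MDFIC, which holds a MyoD family inhibitor domain, gave 1 UMI in the members against 172 in the reference. This was a ratio of 0.0256 in counts per total (counting interval 0.000645 to 0.145).

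ROBO1, a receptor for SLIT proteins, was at 0, 134 and 380 CPM in the members against 697, 946 and 1109 CPM in FOXP2-positive RGCs (-2.34, SE 0.31, edgeR adjusted p = 4.56e-05). Against CALCRL-0 RGCs its value was -1.37 (SE 0.40, edgeR adjusted p = 0.0367), a call that was lost without Infancy 2, Infancy 3, Mature 1 or Senile 1 (adjusted p up to 0.117). SORCS1, a sortilin-related sorting receptor, was at 218, 317 and 362 CPM against 887, 958 and 1253 CPM (-1.77, SE 0.17). DGKB, a diacylglycerol kinase (-1.81, SE 0.31), the kinase gene STK32A (-2.17, SE 0.33), FAM163A (-1.91, SE 0.40) and MID1, a ubiquitin ligase of microtubules (-1.71, SE 0.33), were lower as well, with edgeR adjusted p between 0.000165 and 0.00297.

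Gene lists put together for RGC biology, with earlier results of these data known, were then read by role. Each list is given by how many of its tested genes were higher or lower, beside the 6.02% and 4.27% of all tested genes called against CALCRL-0 RGCs and the 4.02% and 4.46% called against FOXP2-positive RGCs. Over all lists, 40 genes were called against CALCRL-0 RGCs, of which 21 kept their call when any 1 retina was left out, and 36 were called against FOXP2-positive RGCs, of which 24 did.

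Of 61 transcription factors that mark RGC types, 25 were tested against CALCRL-0 RGCs. Of these, 2 were higher and 4 lower, with a list median of -0.25. DACH1, a dachshund-family corepressor, was at 1719, 2097 and 3173 CPM in the members against 1005, 1229 and 1342 CPM in CALCRL-0 RGCs, with no overlap (0.81, SE 0.12, edgeR adjusted p = 0.000263). ZFHX3, a large zinc-finger homeobox factor, was at 24.6, 82.6 and 131 CPM against 118, 270.1 and 381 CPM (-1.63, SE 0.27, edgeR adjusted p = 0.000855). SOX5 and TCF4 were lower but lost their calls without Infancy 2 or Mature 2 (adjusted p up to 0.0569 and 0.0784). RUNX2 was lower and lost its call without any of Infancy 1, 2 and 3 and Mature 1 and 2 (adjusted p up to 0.119).

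Against FOXP2-positive RGCs, 24 of these factors were tested, 4 higher and 5 lower, with a median of -0.10. DACH1 (1.17, SE 0.13) and ZFHX3 (-1.91, SE 0.27) had the same signs as against CALCRL-0 RGCs. CUX2 was higher (1.17, SE 0.25), and SOX5 (-1.13, SE 0.25) and ZFHX4 (-0.92, SE 0.21) were lower, with edgeR adjusted p between 0.00335 and 0.00718. SOX6 was lower and lost its call without Infancy 2, Infancy 3, Mature 1 or Mature 2 (adjusted p up to 0.163).

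Of 26 glutamate receptor genes, 13 were tested against CALCRL-0 RGCs, with 4 higher, 2 lower and a median of 0.08. GRIN2B, the GluN2B subunit of NMDA receptors, was at 837, 1039 and 1948 CPM against 449.7, 505 and 587 CPM (1.11, SE 0.14, edgeR adjusted p = 0.000123). GRM5, the metabotropic receptor mGluR5, was at 469.9, 779 and 1477 CPM against 337, 406 and 464 CPM (0.99, SE 0.18). In neither did the sets overlap. GRM8, the metabotropic receptor mGluR8, was lower in the members of every retina (-0.93, SE 0.21, edgeR adjusted p = 0.00695). GRIA4 was lower but not without Infancy 3 or Mature 2 (adjusted p up to 0.0548). GRIK3 was higher but not without Infancy 3, Mature 2, Mature 5 or Senile 1 (adjusted p up to 0.0957) and not tested without Mature 1, and it stood at -0.13 where a member needed 3 CALCRL UMIs, a fit of 2 retinas in which the median of all genes shifted by -0.35.

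Against FOXP2-positive RGCs, 13 glutamate receptor genes were tested, with 3 higher and 1 lower. GRM5 was again higher (0.91, SE 0.18, edgeR adjusted p = 0.00188) beside GRIN2A. GRID1 was lower and lost its call without Infancy 1, Infancy 2, Infancy 3 or Senile 1 (adjusted p up to 0.132). GRIN2B (0.14, edgeR adjusted p = 0.693) did not pass. Of 8 tested genes for GABA and glycine receptors, GABRB2, the beta2 subunit of GABA-A receptors, was higher than in CALCRL-0 RGCs (0.74, SE 0.14, edgeR adjusted p = 0.00263), and none of 8 passed against FOXP2-positive RGCs. The GABRB2 call was lost in 3 of 19 alternative fits.

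Potassium channels and related channel genes had more higher calls per tested gene than the background. The list was made with earlier results of these data known, and the background was not matched for level, so this is a description. Of 16 tested against CALCRL-0 RGCs, 7 were higher and 1 lower, with a median of 0.28 against -0.04 over all tested genes. KCNIP4, a subunit that modulates Kv4 channels, was at 1719, 2241 and 3361 CPM against 723, 1479.8 and 1638 CPM, with no overlap (0.81, SE 0.15, edgeR adjusted p = 0.00159). KCND2 (Kv4.2), which KCNIP4 proteins bind, was at 1978, 3452 and 4649 CPM against 1723, 2065 and 2449 CPM (0.59, SE 0.12). KCNH5 (0.78, SE 0.15) and KCNH7 (0.61, SE 0.13) of the ether-a-go-go family and KCNC2 (Kv3.2, 0.61, SE 0.12) were higher in the members of every retina, with overlapping levels and edgeR adjusted p between 0.00193 and 0.0042. Of 19 alternative fits of each gene, the call was lost in 2 for KCNIP4, 3 for KCNH5, 4 each for KCND2 and KCNC2 and 5 for KCNH7. KCNJ3 was higher and lost its call without Mature 1 or Mature 2 (adjusted p up to 0.0778). KCND3 was lower and lost it without Infancy 1, Infancy 2, Mature 1 or Senile 1 (adjusted p up to 0.0926).

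Against FOXP2-positive RGCs, 18 channels of this list were tested, with 3 higher, 1 lower and a median of 0.05. KCND2 (0.87, SE 0.13), KCNH5 (0.67, SE 0.15) and KCNIP4 (0.65, SE 0.15) were higher, with edgeR adjusted p between 0.000178 and 0.00898. KCNN2, a calcium-activated SK channel, was at 0, 60.3 and 111 CPM against 123, 172 and 189.8 CPM (-1.65, SE 0.36, edgeR adjusted p = 0.00474). KCNC2 (-0.27) and KCNH7 (0.06) did not pass. Of 13 tested sodium and calcium channel genes, CACNA2D3 was lower than in CALCRL-0 RGCs, a call lost without Infancy 2, Mature 2 or Senile 1 (adjusted p up to 0.119). CACNA2D1 was lower than in FOXP2-positive RGCs, a call lost without Infancy 2 (edgeR adjusted p = 0.0754).

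**Figure D4:**
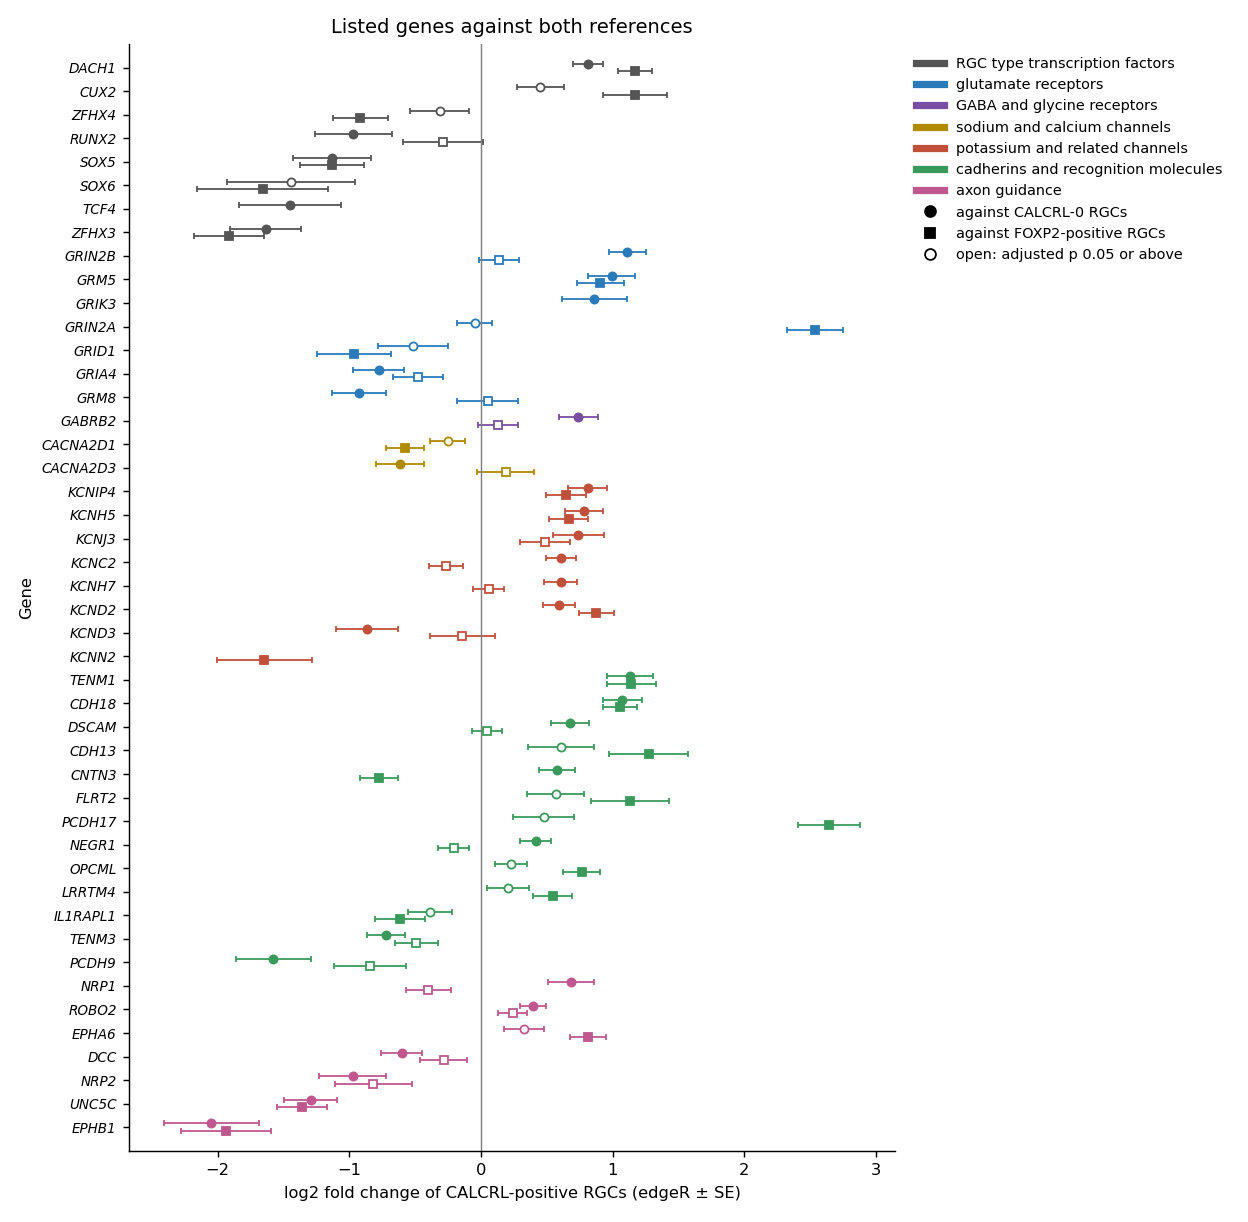
Log2 fold change of CALCRL-positive RGCs (horizontal axis, edgeR estimate with SE) for the listed genes of 7 lists that are named here and were called in at least 1 of the comparisons (vertical axis), against CALCRL-0 RGCs (circles) and FOXP2-positive RGCs (squares). Open symbols have an adjusted p of 0.05 or above, and colours give the list. DACH1, KCNIP4, CDH18 and TENM1 lie right of 0 and ZFHX3, UNC5C and EPHB1 left of 0 against both references, whereas CNTN3 lies at 0.58 and -0.77.

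Of 49 cadherins and recognition molecules, 30 were tested against CALCRL-0 RGCs, with 5 higher, 2 lower and a median of 0.08. CDH18, a type II cadherin, was at 2315, 2758 and 4064 CPM against 770.4, 1373 and 1781 CPM, with no overlap (1.07, SE 0.15, edgeR adjusted p = 0.000222). TENM1, a teneurin that binds partners across synapses, was at 714, 918 and 1726 CPM against 330.2, 466 and 517 CPM (1.13, SE 0.18). DSCAM, which guides the spacing of retinal neurites, was higher by 0.68 (SE 0.14), with 1964 to 3702 CPM against 888 to 1940.0 CPM. The DSCAM call was lost in 5 of 19 alternative fits. TENM3, a teneurin of matched visual circuits, was lower, at 380, 651 and 800.3 CPM against 894, 956 and 1113 CPM (-0.72, SE 0.14). CNTN3 was higher and lost its call without Infancy 2 (edgeR adjusted p = 0.0544). NEGR1 was higher and lost it without Infancy 2, Infancy 3 or Mature 5 (adjusted p up to 0.427), and it stood at -0.12 with no filter on low counts, where the median of all genes shifted by -0.53.

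Against FOXP2-positive RGCs, 29 of these molecules were tested, with 7 higher and 2 lower. CDH18 (1.05, SE 0.13) and TENM1 (1.14, SE 0.18) were higher again with no overlap, as was PCDH17. OPCML, a cell adhesion molecule, was higher with overlapping levels (0.76, SE 0.14). Its call held when any 1 retina was left out but was lost in 2 of 17 alternative fits. The contactin CNTN3 was lower, at 499.6, 721 and 946 CPM against 1026, 1157 and 1403 CPM (-0.77, SE 0.15, edgeR adjusted p = 0.00128), so that the members lay between the references for this gene. The other 4 calls did not hold throughout: CDH13 (lost without Infancy 2 and not tested without Mature 2), FLRT2 (without Mature 1 or Mature 2), LRRTM4 (without Infancy 2, Mature 1 or Mature 2) and IL1RAPL1 (without Infancy 1, Infancy 2, Infancy 3, Mature 2 or Senile 1), with adjusted p up to 0.0848, 0.164, 0.132 and 0.169.

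Axon guidance genes had more lower than higher calls against CALCRL-0 RGCs. Of 16 tested, 2 were higher and 4 lower, with a median of -0.30. UNC5C, a netrin receptor, was at 72.3, 193 and 253 CPM against 341, 427 and 468 CPM, with no overlap (-1.29, SE 0.20, edgeR adjusted p = 0.000568). EPHB1, an ephrin-B receptor of RGC axons, was at 0, 43.7 and 119.9 CPM against 106, 166 and 291 CPM (-2.05, SE 0.36, edgeR adjusted p = 0.00136). The other 4 calls were lost in at least 1 fit: DCC (without Infancy 1, Infancy 2 or Mature 2), NRP2 (without Infancy 2, Infancy 3, Mature 2 or Senile 1), NRP1 and ROBO2 (each without Mature 5), with adjusted p up to 0.0813, 0.0603, 0.162 and 0.221. ROBO2, one of the higher ones, stood at -0.14 with no filter on low counts, where the median of all genes shifted by -0.53.

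Against FOXP2-positive RGCs, 15 guidance genes were tested, with 1 higher, 2 lower and a median of -0.21. UNC5C (-1.36, SE 0.19) and EPHB1 (-1.94, SE 0.34) were lower again, each with no overlap. The ephrin-A receptor EPHA6 was higher, at 849.5, 1153 and 1499 CPM against 584, 650.3 and 684 CPM (0.81, SE 0.14, edgeR adjusted p = 0.000474).

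The cyclic AMP cascade downstream of Gs, with 40 genes, had 10 tested against each reference. Against CALCRL-0 RGCs the median was 0.02 and AKAP7, an anchor for protein kinase A, was higher (0.68, SE 0.16, edgeR adjusted p = 0.00974), a call lost without Mature 5 (0.48, adjusted p = 0.121). Against FOXP2-positive RGCs the median was 0.17. The phosphodiesterases PDE4B (0.91, SE 0.17, edgeR adjusted p = 0.000949) and PDE1C (1.14, SE 0.27, edgeR adjusted p = 0.0103) were higher, and their values against CALCRL-0 RGCs were 0.11 and 0.48 (adjusted p = 0.784 and 0.375). The PDE1C call against FOXP2-positive RGCs was lost in 3 of 17 alternative fits. AKAP6 was lower and lost its call without Infancy 2, Mature 1, Mature 2 or Senile 1 (adjusted p up to 0.134).

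Of the 16 pan-RGC genes, 7 were tested against CALCRL-0 RGCs and 2 were higher, THY1 (0.57, SE 0.17) and NRN1 (0.52, SE 0.15). Both lost the call in 4 of 7 fits that left out a retina, THY1 without Infancy 2, Infancy 3, Mature 1 or Mature 2 and NRN1 without Infancy 2, Mature 1, Mature 2 or Mature 5 (adjusted p up to 0.174 and 0.136). With no filter on low counts, where the median of all genes shifted by -0.53, they stood at -0.03 and -0.04. Against FOXP2-positive RGCs, THY1 was higher (0.78, SE 0.16, edgeR adjusted p = 0.00339), and NRN1 was higher but not without any of Infancy 2, Infancy 3, Mature 1, Mature 2 and Senile 1 (adjusted p up to 0.162). Of 4 tested genes of neurite growth, STMN1 was higher than in CALCRL-0 RGCs, which was lost without Infancy 2, Mature 2 or Mature 5 (adjusted p up to 0.097). No immediate early gene and no marker of amacrine cells, cones, rods, horizontal cells, Müller cells, astrocytes, microglia or vessels passed the filter on low counts in either comparison.

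The members were not uniform. For each gated RGC, the 20 nearest gated RGCs were found in principal components that were centred by retina and left out the genes of the rule. Members made up 23.3% of the neighbours of a member on average, against 2.01% of all gated RGCs. They made up 14.8% of the neighbours of single-UMI nuclei, 1.43% of those of CALCRL-0 RGCs and 0.497% of those of FOXP2-positive RGCs. For SPP1-, RUNX1- and SLIT2-positive RGCs the values were 1.49%, 1.28% and 0.392%. Read from the members, 39.2% of their neighbours were CALCRL-0 RGCs, the largest part, and 26.9% were single-UMI nuclei. Of 354 member neighbours of members, 296 came from another retina. The share that the number of members per retina would give by itself was not computed, so the count does not show grouping across retinas. These figures are descriptions over nuclei.

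At least 1 other member was among the 20 neighbours of 65 of the 76 members. At least 5 were found for 35 members from 12 retinas. These 35 held a median of 11 HS3ST4 UMIs and none was without it, whereas 15 of the 41 members with fewer than 5 member neighbours held no HS3ST4. HS3ST4 could itself enter the principal components, so neighbours and HS3ST4 were not independent. The 35 had a median of 5111 UMIs and the 41 a median of 7158. Members without HS3ST4 were 4 of 10 in Infancy 1, both of the 2 in Senile 3, 2 each in Infancy 2, Infancy 3, Mature 1 and Senile 1, and 1 in Senile 5. The share without HS3ST4 was 10 of 33 at 2 CALCRL UMIs and 5 of 43 at 3 or more.

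**Figure D5:**
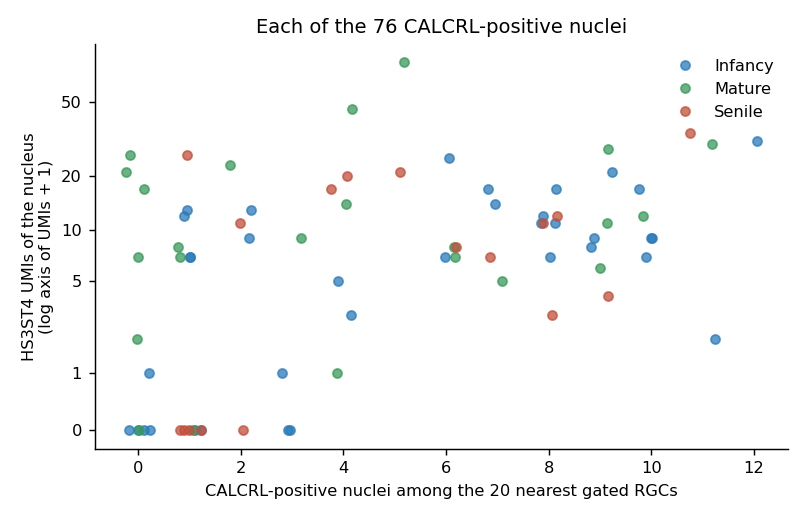
Each of the 76 CALCRL-positive nuclei by the number of other members among its 20 nearest gated RGCs (horizontal axis, points moved slightly sideways) and by its HS3ST4 UMIs (vertical axis, log scale of UMIs + 1), coloured by stage. All 15 nuclei at 0 HS3ST4 UMIs lie at fewer than 5 member neighbours, and nuclei of each stage lie at 5 or more.

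Comparisons between stages within the members could use the 7 retinas with at least 5 members, 3 infancy, 3 mature and only Senile 1. Of 1639 genes tested, 1 differed between senile and infancy (0.061%), higher in the senile retina, and none between mature and infancy (0%) or senile and mature (0%). At an unadjusted p under 0.05, edgeR found 167, 145 and 114 genes, and DESeq2 called 3, 0 and 1. The senile-infancy count was not stable: 17 genes passed with the Cell Ranger version in the model (16 lower in the senile retina), 17 of 18529 with no filter on low counts (15 lower), 25 of 1156 without mixed nuclei (24 lower) and 13 without Mature 5 (12 lower). With no filter on low counts, 12 genes differed between mature and infancy and 5 between senile and mature. Among the 83 named and listed genes that were tested, the lowest edgeR adjusted p was 0.381 for senile against infancy, 0.305 for mature against infancy and 0.43 for senile against mature. Whether the senile-infancy change differed between members and CALCRL-0 RGCs was tested over 1895 genes, and 0 passed with edgeR (0%), 0 with DESeq2 and 109 at an unadjusted p under 0.05, while 8 of 7112 passed without mixed nuclei and 11 of 7529 without Mature 5 (edgeR). With 1 senile retina, these tests take its spread from the other stages. Among the 7 retinas only Mature 5 had version 7.0.1, so the version term stood for that retina alone. In simulated data, 2.27% of 2-fold changes were recovered for senile against infancy and 25.6% for mature against infancy. Few calls between stages therefore do not show that such changes were absent.

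The 1 gene was SPTLC1li7, a numbered copy of SPTLC1, which encodes a subunit of the enzyme that starts sphingolipid synthesis. It is named here after its value was seen, and as a numbered copy it can share reads with other copies. In the members it was at 18.1, 0, 24.2, 0 and 0 CPM in Infancy 1 to 5. It was at 146, 179.8, 82.3 and 134 CPM in Mature 1, 2, 3 and 5. In Senile 1 to 5 it was at 1058, 1029, 573, 299.7 and 506 CPM. These values did not overlap between stages, but several rest on very few UMIs. All members together held 9012 UMIs in Infancy 5, 12158 in Mature 3 and 6674 in Senile 4. At that depth, the 0 of Infancy 5 does not exclude a level like those of the mature retinas. The senile minus infancy log2 fold change was 6.01 (SE 0.69, edgeR adjusted p = 0.00101), the mature minus infancy value 3.46 (adjusted p = 0.174) and the senile minus mature value 2.56 (adjusted p = 0.283).

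In CALCRL-0 RGCs SPTLC1li7 had the same order of stages, with 7.41 to 16.8 CPM in infancy, 26.6 to 212 CPM in mature and 174 to 457 CPM in senile retinas. The senile-infancy change in members minus that in CALCRL-0 RGCs was 1.77 (edgeR adjusted p = 0.821). With retinas of 2 or more members, which brings all 5 senile retinas in, the senile-infancy value in the members was 5.75 (edgeR adjusted p = 4.55e-05), an alternative added after the data were seen.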

How the data were processed

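Single nuclei of 15 TS retinas were captured by droplet 3′ sequencing. The deposited values are UMI counts per gene and nucleus, which the authors made with Cell Ranger on the TS_3.0 reference (versions 5.0.1 and 7.0.1 in the submitters' processing notes, 6.1.2 and 7.0.1 in the file headers). Each library gave 13429873 to 58734300 UMIs over 4269 to 9856 barcodes and 83605 features. Columns of samples outside the series numbered 0.

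A nucleus was kept when its gene number exceeded 200 and stayed below 6000, and mitochondrial UMIs made up under 5%. Doublets were called with Scrublet (in scanpy 1.11.5) at an expected 8 per 1000 for each 1000 nuclei and were left in except in an alternative. Genes of the membership rule were left out of tests. UMIs were summed per retina and set (at least 5 nuclei in each), filtered for low counts with edgeR's filterByExpr and tested with edgeR 4.0.16 (TMM scaling, quasi-likelihood), with the retina as a block between sets, and without it between stages. DESeq2 1.42.0 was an alternative, and further tools were R 4.3.3, Python 3.11.15, numpy 2.4.6, scipy 1.17.1 and pandas 2.3.3. The procedure was tested on simulated data. Of simulated 2-fold changes it recovered 87.8% for members against CALCRL-0 RGCs and 84.8% against FOXP2-positive RGCs. For mature against infancy it recovered 25.6%, and for senile against infancy 2.27%. Of 4-fold changes the last 2 recovered 83.9% and 46.0%. Named genes were those of the gene lists and, per direction, at most 12 single-name genes against each reference (5 between stages) with the largest fold change among those with adjusted p under 0.05, the same direction in every retina (no overlap between stages) and a mean of at least 50 CPM in the higher group. Members, named-gene rule and gene lists were chosen with earlier results of these data known. P-values measure the spread between retinas, and between sets the spread of the difference within a retina. For the senile stage within the members, which had 1 retina, the spread came from the other stages.

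Shares and levels were compared between stages with exact permutation tests. Alternatives changed the normalization, the filter, the thresholds, the treatment of doublets and mixed nuclei, the version term, the replicate block and each retina in turn. No genome of the TS_3.0 build was used here, so coordinates and sequences are not given. Some listed genes are not reported here by name, though they stand in the counts of their lists.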

Additional observations from a re-analysis of the deposited data

Results flagged for a closer look

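In 5 of 53 groups of 4 to 10 retinas tested, 1 retina stood apart from the others by Dixon's criterion at the 95% level, which chance alone meets in about 1 of 20 groups. The share of CALCRL-positive nuclei among gated RGCs was 27.8% in Mature 5 against 0 to 1.97% in the other mature retinas, and rests on 5 of 18 nuclei. The remaining 4 are log2 ratios of CPM + 10, given per retina. GULP1 in members over CALCRL-0 RGCs was 3.15 in Mature 5 against 0.87 to 1.80 in the other 6 retinas, and Mature 5 held 9 CALCRL-0 nuclei. LDLRAD4 in the same ratio was -4.09 in Mature 2 against -2.33 to -1.06. TRPS1 was -4.75 in Senile 1 against -2.12 to -0.17. Against FOXP2-positive RGCs, MDFIC was -2.44 in Mature 1, the retina that held its only UMI in the members, against -3.76 to -3.41 in the other 5 retinas.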

How the results depend on the processing

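The counts below rest on different numbers of genes tested. Against CALCRL-0 RGCs 195 of 1895 genes differed, and 688 of 38725 did with no filter (48 higher, 640 lower), 87 of 7526 with at least 10 nuclei per retina, 301 of 7112 without mixed nuclei (95 higher, 206 lower), 78 of 8900 with 3 or more CALCRL UMIs (13 higher, 65 lower; 13 members in 2 retinas), 309 of 7201 with a filter of 20 CPM, chosen after seeing the data (129 higher, 180 lower), and 139 to 294 when a retina was left out, the lowest of 1916 without Infancy 2 and the highest of 7529 without Mature 5 (113 higher, 181 lower). Of the 195, 102 were called with no filter, 56 with 10 nuclei, 138 without mixed nuclei, 49 with 3 CALCRL UMIs, 162 with 20 CPM and 184 by DESeq2. Against FOXP2-positive RGCs 175 of 2063 differed, and 368 of 25912 did with no filter (74 higher, 294 lower), 73 of 2903 with 3 CALCRL UMIs (26 higher, 47 lower), 358 of 7145 with 20 CPM (119 higher, 239 lower) and 134 to 186 when a retina was left out. The median of all genes shifted by -0.53 (no filter), -0.15 (without mixed nuclei), -0.35 (3 CALCRL UMIs) and -0.10 (without Mature 5) against CALCRL-0 RGCs, and by -0.34 (no filter), -0.17 (20 CPM) and -0.10 (3 CALCRL UMIs) against FOXP2-positive RGCs. Beside these shifts of all genes, values higher against CALCRL-0 RGCs were below 0 with no filter for NEGR1 (-0.12), NRN1 (-0.0373), ROBO2 (-0.14) and THY1 (-0.0278), and with 3 CALCRL UMIs for GRIK3 (-0.13). The cause of these changes was not tested. Senile against infancy gave 1 of 1639 genes, higher in senile retinas, and 3 with DESeq2 (2 lower), 17 of 18529 with no filter (15 lower), 25 of 1156 without mixed nuclei (24 lower), 17 with the Cell Ranger version in the model (16 lower), 0 with the replicate block and 1 to 13 when a retina was left out, the highest without Mature 5 (12 lower). Mature against infancy gave 0, and 12 with no filter, 8 with 10 nuclei, 2 without mixed nuclei and 0 to 1 when a retina was left out. Senile against mature gave 0, and 1 with DESeq2, 5 with no filter, 3 without mixed nuclei, 1 with the version in the model and 0 to 2 when a retina was left out. The senile-infancy change set against that of CALCRL-0 RGCs gave 0, and 3 with no filter, 8 without mixed nuclei and 0 to 11 when a retina was left out. No fit was possible with 10 nuclei for comparisons with the senile stage, or without Senile 1, the only senile retina with at least 5 members. Without the retina as a block, 195 and 149 genes differed from CALCRL-0 and FOXP2-positive RGCs. For the share, mature minus infancy was -0.0187 points with all passing nuclei as denominator, and leaving out a retina gave -1.84 to 5.10 points for mature minus infancy, -1.71 to -0.743 for senile minus infancy and -6.41 to 0.532 for senile minus mature. For the CALCRL level these ranges were -1.30 to -0.0755, -0.39 to -0.18 and -0.22 to 1.007 (log2), with -0.04 without Mature 3. Replicate numbers did not pair the retinas: deviations of same-numbered retinas correlated at -0.28 to 0.56, and 4 of 15 retinas lay closest to one of their own number. With the replicate block, adjusted p was 0.375 for the share in senile minus infancy, 1 in mature minus infancy and 0.938 in senile minus mature, and SPTLC1li7 stood at 6.63 (adjusted p = 0.144, edgeR).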

Other observations

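Some genes were too low for the filter of the comparison with CALCRL-0 RGCs. They were picked for a high level in the members, so their values are given with no test. CLIC6 was at 87.3, 163 and 418 CPM in the members (lowest, median and highest of 7 retinas) against 0, 13.3 and 24.1 CPM in CALCRL-0 RGCs. DAB2, an endocytic adaptor, was at 36.1, 96.6 and 334 CPM against 0, 14.4 and 19.8 CPM. EXTL1, a glycosyltransferase related to heparan sulfate polymerases, was at 72.3, 146 and 299.6 CPM against 7.86, 37.2 and 55.4 CPM. IRX4, an Iroquois homeobox factor, was at 49.2, 90.4 and 179.8 CPM against 23.6, 34.2 and 40.2 CPM. Each was higher in the members of all 7 retinas, the pattern for which it was picked.

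None of 9 marker genes of intrinsically photosensitive RGCs that the files hold passed the filter on low counts. In the members ADCYAP1 stood at 43.0 CPM, TRPC6 at 37.8, RASGRP1 at 34.4, TRPC7 at 24.1 and IRX1 at 8.60 CPM. In CALCRL-0 RGCs these genes stood at 38.3, 20.6, 38.1, 82.1 and 28.5 CPM. OPN4 (melanopsin), EOMES, TBX20 and LMO2 gave 0 UMIs in the members, which allows up to 5.16 CPM. In CALCRL-0 RGCs, whose summed depth was larger (12803570 UMIs against 581716), they stood at 0.156, 8.51, 7.73 and 0 CPM, so that a difference in OPN4 or LMO2 was not detectable at this depth. BNC2 gave 0 UMIs in members and in nuclei with 1 CALCRL UMI and 18.7 CPM in CALCRL-0 RGCs.

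Other peptide genes were few. VIP gave 2 UMIs in the members, SST 1, TAC1 1 and PENK 0. SCG2, a granin of secretory vesicles, was at 375 CPM against 511 CPM in CALCRL-0 RGCs and did not pass the test (-0.37, edgeR adjusted p = 0.455). Of 34 peptide and class B receptors, VIPR2, a receptor for VIP, was the only one tested, and it did not pass at the main filter (0.62) or at 20 CPM (0.53, edgeR adjusted p = 0.388).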
